A study of Mus musculus with 6 samples.

Results

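The genes described here encode the structural subunits of the mitochondrial respiratory chain and of ATP synthase. Members were picked by symbol from the deposited count table: the Nduf genes of complex I, the Sdh genes of complex II, the Uqcr genes of complex III, the Cox4 to Cox8 subunit genes of complex IV and the Atp5 genes of complex V, together with the protein-coding genes of the mitochondrial genome. Of 15295 genes in the table, 91 were members, 13 of them encoded by the mitochondrial genome and 78 by the nucleus. The nuclear members were 37 genes of complex I, 4 of complex II, 7 of complex III, 13 of complex IV and 17 of complex V. The symbol rule leaves out Cox7a1, the Cox4i genes, Cyc1 and Ndufab1, and 3 pseudogenes with matching symbols were also left out. Cox6a2, Cox7b2, Cox8b, Cox8c, Ndufb1 and Uqcr11 had no row and are not analysed here.

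Complexes I to IV sit in the inner mitochondrial membrane and pass electrons from NADH and succinate to oxygen, and complexes I, III and IV move protons across the membrane as they do so. ATP synthase, complex V, lets the protons back and makes ATP. The mitochondrial genome supplies hydrophobic subunits of complexes I, III, IV and V and none of complex II, while every other subunit is made from nuclear genes and imported, so each mixed complex needs transcripts of both genomes.

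The libraries came from 6 whole tumours of NA13, a mouse bladder cancer line that the series describes as rich in DDR2, a collagen receptor. In 3 tumours, labelled shDdr2, the cells carried an shRNA against Ddr2. In the 3 control tumours they carried a scrambled shRNA. Tumours of both groups received IgG, and the strain of both is given as C57BL/6. The labels call the tumours xenografts and give no age or sex of the hosts, and nothing in them says that the 3 tumours of a group grew in separate animals. A p-value here therefore weighs a difference against the scatter of these libraries only, part of which may be technical. A whole tumour mixes tumour and host cells, and in bulk RNA fewer cells of a type and less RNA per cell cannot be told apart.

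Library totals ranged from 15560571 to 19522985 counts. The level of the targeted gene in whole tumours did not bear out the labels. Ddr2 transcripts of host cells would be counted too, so this level cannot show whether the tumour cells had less Ddr2. Ddr2 stood at 4.84, 19.0 and 28.6 CPM (counts scaled to a common library total) in the libraries labelled shDdr2 1 to 3, against 6.42, 16.7 and 20.5 CPM in control 1 to 3, with a log2 fold change of 0.27 (SE 0.66) and overlapping groups, and its sign turned without the library labelled shDdr2 3 (-0.28) or without control 1 (-0.08). Every direction below is therefore between libraries as labelled. The library labelled shDdr2 1 stood apart from the other 5 on the first principal component, which held 50.1% of the variance, so results that rest on it are given with and without it.

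The transcripts of the mitochondrial genome had a higher median level for their length than the nuclear members, with overlap between the 2 sets. Mean levels per kilobase of transcript over the 6 libraries ran from 124.5 CPM per kb for mt-Atp8, the small accessory subunit of complex V, to 8013 CPM per kb for mt-Co1, the catalytic subunit of complex IV, with a median of 1455 CPM per kb over the 13. The low values of mt-Atp8 and mt-Nd4l (764 CPM per kb) are uncertain. Each shares bases with a neighbour counted higher, mt-Atp6 (3846 CPM per kb) and mt-Nd4 (1455 CPM per kb). Reads over these overlaps cannot be assigned with certainty. The 75 nuclear members that passed the filter on low counts and have an annotated transcript length had a median of 111 CPM per kb. Among them the highest level per length was that of Ndufa4 at 878 CPM per kb, a complex IV subunit first assigned to complex I and above mt-Atp8, mt-Nd4l and mt-Nd3 on this scale, followed by the catalytic beta subunit of ATP synthase, Atp5b, at 598 CPM per kb. Complex I was led by Ndufb9 at 260.3 CPM per kb, complex III by the hinge protein Uqcrh at 350.1 CPM per kb and complex II by the iron-sulfur subunit Sdhb at 76.9 CPM per kb.

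**Figure D1:**
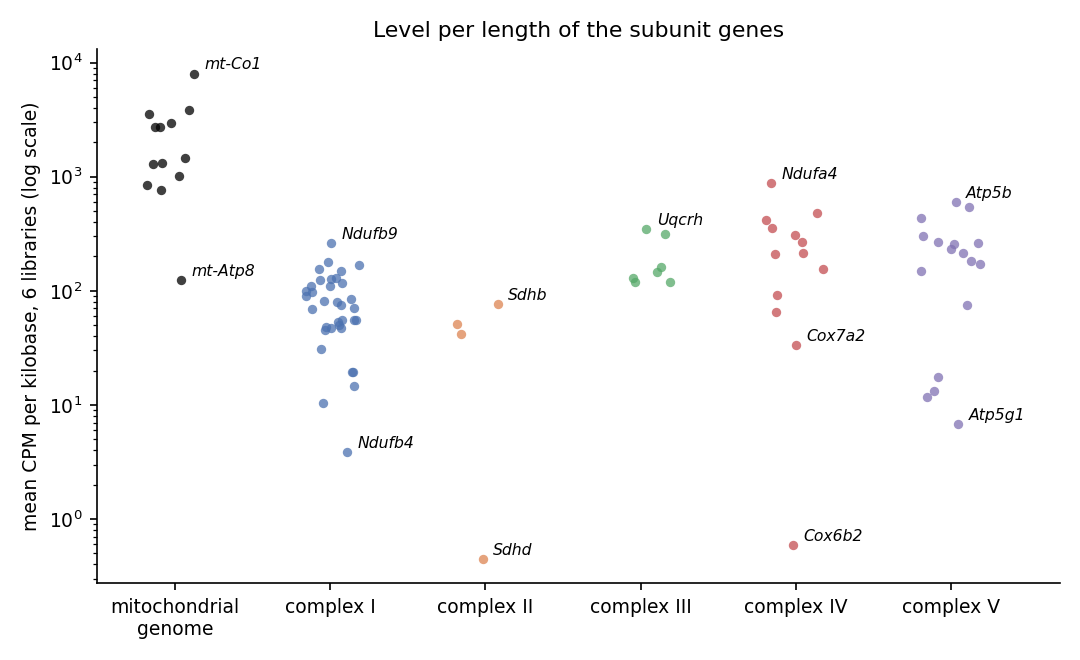
Mean level per length of each subunit gene over the 6 libraries, in CPM per kilobase of transcript on a log axis, with 1 point per gene, grouped by the mitochondrial genome and the nuclear genes of complexes I to V. The mitochondrially encoded genes lie between 124.5 and 8013 CPM per kb, while Sdhd and Cox6b2 lie below 1 CPM per kb.

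At the low end stood 2 genes, Sdhd and Cox6b2. Sdhd, a membrane anchor of complex II (chromosome 9, 50596357 to 50603812, minus strand, GRCm38), was counted at 0.867, 0.731 and 0.172 CPM in shDdr2 1 to 3, against 0.324, 0.836 and 0.377 CPM in control 1 to 3, from 3 to 15 counts per library. Its mean level per length was 0.448 CPM per kb, against 41.9 CPM per kb for the other anchor, Sdhc, 50.9 CPM per kb for the flavoprotein Sdha and 76.9 CPM per kb for Sdhb. No annotated transcript nearly identical to Sdhd was found, and how reads were assigned to it is not given in the sources used here. Cox6b2, the testis form of a complex IV subunit, had 3 to 9 counts per library and was the 1 member that did not pass the filter on low counts, with 0.587 CPM per kb against 306 CPM per kb for its widely expressed counterpart Cox6b1. Cox7a1, the heart and skeletal muscle form of subunit 7a and no member by the symbol rule, stood at 2.96, 0.731 and 1.15 CPM in shDdr2 1 to 3, against 1.83, 1.08 and 0.566 CPM in control 1 to 3. The widely expressed Cox7a2 stood at 49.4, 18.1 and 10.7 CPM in shDdr2 1 to 3, against 16.0, 22.5 and 15.8 CPM in control 1 to 3, and the groups overlapped in both genes.

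Within families of related genes, counts were spread unevenly. Atp5g1, Atp5g2 and Atp5g3 encode the same mature c subunit of the ATP synthase ring. Per length Atp5g3 stood at 546 CPM per kb, against 13.1 CPM per kb for Atp5g2 and 6.83 CPM per kb for Atp5g1. The order of Atp5g2 and Atp5g1 rests on the annotated lengths, 731 and 4715 bases. Their mean levels undivided by length were 9.59 CPM for Atp5g2 and 32.2 CPM for Atp5g1. Atp5g2 also has annotated near-identical copies over 88.2% of its length, so its counts are uncertain. Of their summed counts, Atp5g3 held 88.9 to 91.5% in the 6 libraries. Ndufb4 held 3.80 to 6.33% of the counts of Ndufb4, Ndufb4b and Ndufb4c, which have similar sequences, so their split is uncertain. Ndufa4l2, a relative of Ndufa4 known as a target of the hypoxia factor HIF-1, held 20.7, 23.0 and 33.2% of the summed counts of Ndufa4 and Ndufa4l2 in shDdr2 1 to 3, against 25.9, 33.1 and 35.0% in control 1 to 3. The groups overlapped in this share. Its Wilson 95% interval was at most 2.18 percentage points wide in a library, which covers counting error only.

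Set against control tumours, the shDdr2 tumours showed no change in any single subunit gene that passed the test. Of 90 members tested by edgeR's quasi-likelihood test, 0 had an adjusted p under 0.05, and none of the 14498 genes tested did (0%). At an unadjusted p under 0.05 there were 0 members, beside 1.44% of all genes, and DESeq2 called 0 members and 40 genes in all (0.276%). The log2 fold change was above 0 for 77 of 90 members, beside 57.1% of all genes, with a median of 0.22 over the members and 0.04 over all genes. That direction was that of the nuclear members: 75 of 77 were above 0 with a median of 0.26, while 2 of 13 mitochondrially encoded members were above 0 with a median of -0.05. It rested on 1 library. Without the library labelled shDdr2 1, 6 of 77 nuclear members were above 0, beside 49.2% of all genes, with a median of -0.35, and without both libraries numbered 1 there were 7 of 77, beside 49.7%. With the replicate number as a block, 67 of all 90 members were above 0, beside 51.3% of all genes.

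**Figure D2:**
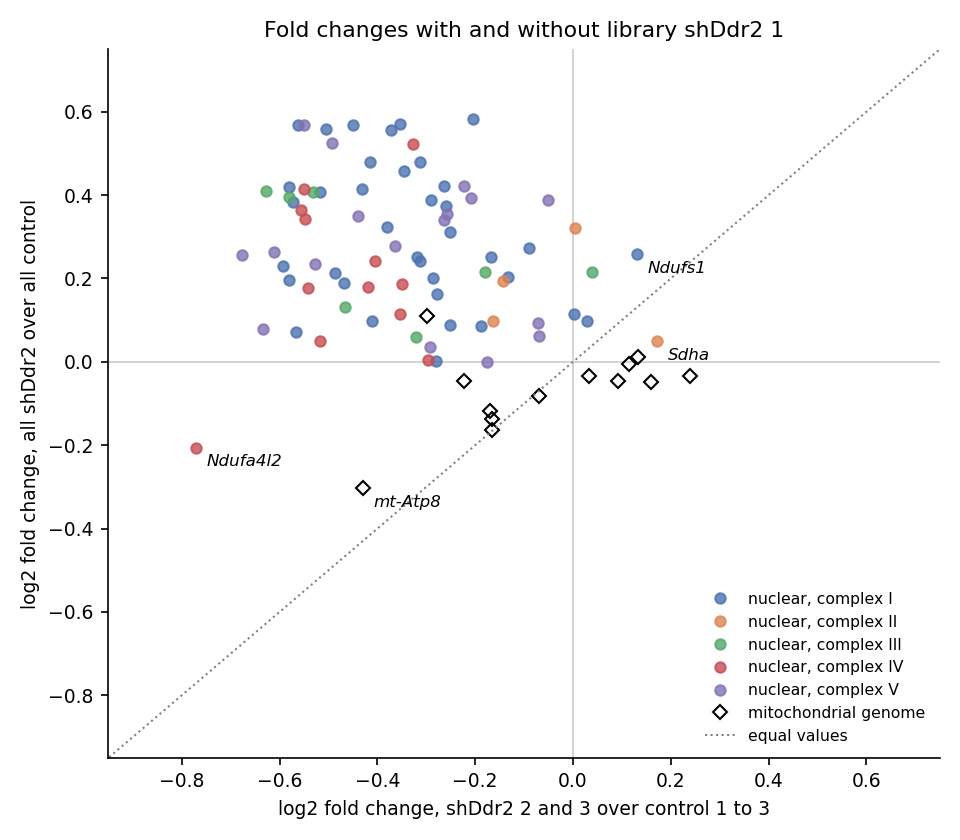
Log2 fold change of each of the 90 tested subunit genes, with all 6 libraries on the vertical axis and without the library labelled shDdr2 1 on the horizontal axis, coloured by complex. Of the 77 nuclear members, 75 lie above 0 with all libraries and 6 lie to the right of 0 without that library.

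The groups did not overlap in 1 member, Ndufs1, beside 4.32% of all genes. Ndufs1 is the largest core subunit of complex I and carries iron-sulfur clusters of its electron path (chromosome 1, 63143596 to 63176833, minus strand, GRCm38). Its level was 154.9, 128.7 and 113.7 CPM in shDdr2 1 to 3, against 109.9, 110.5 and 111.6 CPM in control 1 to 3. All 3 shDdr2 libraries were above all 3 control libraries, and the library labelled shDdr2 3 was above control 3 by a small margin. The log2 fold change was 0.26 (SE 0.19, 95% interval -0.19 to 0.71), and 0.13 without the library labelled shDdr2 1. Exons of 2 genes on the other strand overlap those of Ndufs1, and the strand setting of the counts is not given in the sources used here.

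Of the 77 nuclear members tested, 2 were lower in shDdr2 tumours, Ndufa4l2 and, with a log2 fold change of -0.00033, Atp5d. The level of Ndufa4l2 was 301, 111 and 136 CPM in shDdr2 1 to 3, against 202, 226 and 205 CPM in control 1 to 3 (chromosome 10, 127514967 to 127517154, plus strand, GRCm38). Exons of Shmt2 on the other strand overlap those of Ndufa4l2, and the strand setting is not given in the sources used here. The libraries labelled shDdr2 2 and 3 lay below all control libraries and that labelled shDdr2 1 above them. With all libraries the log2 fold change was -0.21 (SE 0.38), and without the library labelled shDdr2 1 it was -0.77, with an unadjusted p of 0.00167 and an adjusted p of 0.627 by the same test. Ndufa4 itself stood at 1152, 371 and 274 CPM in shDdr2 1 to 3, against 578, 458 and 380.4 CPM in control 1 to 3, in the same arrangement of libraries. Its log2 fold change was 0.34 (SE 0.53) with all libraries and -0.55 without the library labelled shDdr2 1.

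Without that library, 11 of 90 members had an unadjusted p under 0.05 in edgeR's test, beside 6.95% of all genes, all 11 were lower in shDdr2, and 0 had an adjusted p under 0.05. Without both libraries numbered 1, 9 members had an unadjusted p under 0.05, beside 7.08%, of which 6 were nuclear and lower in shDdr2 and 3, mt-Nd2, mt-Nd4 and mt-Nd4l, were higher. Besides Ndufa4l2 and Ndufa4, the 11 were the complex I accessory subunits Ndufs4, Ndufs6 and Ndufa6, the small complex III subunits Uqcrh, Uqcrb and Uqcr10, the complex IV subunits Cox6c and Cox7c, and Atp5j2 of the membrane part of ATP synthase. Uqcrh, for example, had 443 CPM in shDdr2 1, 120.2 CPM in shDdr2 2 and 92.4 CPM in shDdr2 3, against 207, 166 and 121 CPM in control 1 to 3. The highest and the 2 lowest of these 6 values were all from libraries labelled shDdr2. Cox6c had 449, 136 and 95.7 CPM in shDdr2 1 to 3, against 176, 188 and 146 CPM in control 1 to 3, and again the shDdr2 values lay on both sides of all control values. Without the library labelled shDdr2 3 in place of shDdr2 1, 1 member had an unadjusted p under 0.05, beside 2.7% of all genes: Ndufa5, an accessory subunit of complex I, which was higher in shDdr2.

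The mean log2 CPM of the nuclear members of each complex differed between the groups by less than between libraries of the shDdr2 group. For complex I it was 6.81, 5.64 and 5.20 in shDdr2 1 to 3, against 5.90, 5.82 and 5.54 in control 1 to 3, a difference of 0.13. The difference was 0.11 for complex II, 0.08 for complex III, 0.02 for complex IV (-0.017 with library totals alone) and 0.11 for complex V. Two-sided exact permutation tests over the libraries gave p from 0.6 to 1.0, and 1.0 after adjustment over the 5 complexes, in a design whose smallest possible p is 0.1. In all 5 complexes the highest value was that of shDdr2 1 and the lowest that of shDdr2 3, with the 3 control values between them. Without the library labelled shDdr2 1 every one of the 5 differences was below 0, with the lowest at -0.47 for complex IV. The highest was -0.025 for complex II, and this sign is uncertain. The complex II mean over 4 genes includes Sdhd, which had 3 to 15 counts per library.

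Transcripts of the mitochondrial genome followed another order of libraries than the nuclear ones. They made up 2.64, 3.25 and 3.38% of all counts in shDdr2 1 to 3, against 4.12, 2.88 and 2.96% in control 1 to 3, or 3.09 ± 0.398% and 3.32 ± 0.694% (SD, n = 3 each). Control 1 was highest and the library labelled shDdr2 1 lowest, and the groups overlapped (exact permutation test, p = 0.8). The nuclear members made up 1.75, 1.03 and 0.808% of the counts outside the mitochondrial genome in shDdr2 1 to 3, against 1.16, 1.13 and 0.957% in control 1 to 3, or 1.196 ± 0.490% and 1.08 ± 0.110% (SD, n = 3 each; exact p = 0.9). The library labelled shDdr2 1 was highest and that labelled shDdr2 3 lowest. Wilson 95% intervals of these shares were at most 0.0179 percentage points wide, so counting error is small beside the spread between libraries.

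The balance of the 2 genomes therefore differed most between libraries of the same group. There were 1.56, 3.25 and 4.34 mitochondrial counts per nuclear subunit count in shDdr2 1 to 3, against 3.70, 2.64 and 3.20 in control 1 to 3. The lowest and the highest ratio were both from tumours labelled shDdr2, and the 3 control ratios lay between them. On the log2 scale the difference of the group means was -0.17 (exact permutation test, p = 0.9). Without the library labelled shDdr2 1 it was 0.26, and without both libraries numbered 1 it was 0.37.

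**Figure D3:**
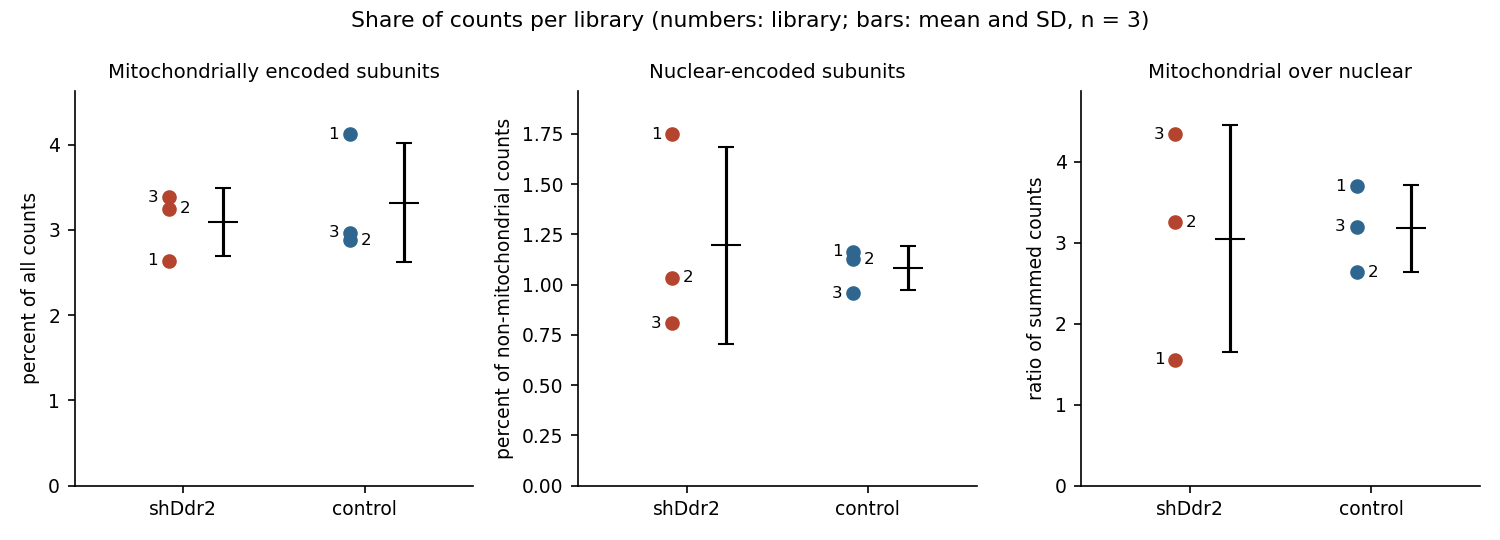
Counts on mitochondrially encoded subunit genes as a percent of all counts, counts on nuclear subunit genes as a percent of counts outside the mitochondrial genome, and the ratio of the summed counts, with shDdr2 left and control right. Points are libraries with their numbers, and bars are the mean and SD (n = 3); in the middle and right panels the shDdr2 points span a wider range than the control points, 0.808 to 1.75% against 0.957 to 1.16% for the nuclear share.

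Among the mitochondrially encoded members, mt-Co1 held 36.3 to 41.8% of the counts of the 13 genes. It stood at 12709, 11254 and 11653 CPM in shDdr2 1 to 3, against 16180 CPM in control 1, 11172 CPM in control 2 and 11315 CPM in control 3 (chromosome M, 5328 to 6872, plus strand), with a log2 fold change of -0.12 (SE 0.29). The deposited counts of mt-Co1 are rounded to 3 significant digits in all 6 libraries. The complex III subunit mt-Cytb, which carries the haems of the Q cycle, was at 2666, 3724 and 3631 CPM in shDdr2 1 to 3, against 4570 CPM in control 1, 2840 CPM in control 2 and 2940 CPM in control 3. In both genes control 1 was the highest library and the groups overlapped. That held widely: control 1 was the highest library for 11 of the 13 genes, beside 14.5% of all genes, and control 2 the lowest for 7 of 13, beside 9.66%. Control 1 also had the highest summed erythrocyte markers, at 596 CPM for the 4 of 7 with a row, against 46.1 to 56.0 CPM in the other control libraries and 25.1 to 62.6 CPM in shDdr2 libraries, and their part in the result was not tested. Without control 1 the log2 fold change was above 0 for 12 of 13 mitochondrially encoded members, beside 58.2% of all genes, with a median of 0.18.

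The 2 genes not highest in control 1 were mt-Nd3 and mt-Atp8. The complex I subunit gene mt-Nd3 stood at 459.5, 226 and 238 CPM in shDdr2 1 to 3, against 428.5, 207 and 220.1 CPM in control 1 to 3. Its neighbour on the mitochondrial chromosome, mt-Nd4l, also of complex I, stood at 129.8, 236 and 306 CPM in shDdr2 1 to 3, against 352.5, 145 and 191.5 CPM in control 1 to 3. In the library labelled shDdr2 1, mt-Nd3 was thus at its highest level and mt-Nd4l at its lowest, while control 1 was high for both. Both genes have an annotated nearly identical copy elsewhere in the genome, at 97% identity or more, so their counts are uncertain. The same limit holds for mt-Co1, mt-Co2, mt-Co3 and mt-Atp6, and for mt-Nd4 over 63.6% of its length.

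The accessory subunit gene mt-Atp8 had the largest difference between the groups of the 13. It stood at 26.6, 23.7 and 18.0 CPM in shDdr2 1 to 3, against 29.9, 24.4 and 29.9 CPM in control 1 to 3, a log2 fold change of -0.30 (SE 0.23). The groups overlapped through the library labelled shDdr2 1 and control 2, and mt-Atp8 shares bases with mt-Atp6, so reads over the overlap cannot be assigned with certainty. It was the 1 mitochondrially encoded gene whose log2 fold change stayed below 0 without each of the 6 libraries in turn, between -0.43 and -0.16. For mt-Nd6, the 1 member made from the other strand of the mitochondrial genome, levels were 663, 607 and 641 CPM in shDdr2 1 to 3, against 825, 662 and 614 CPM in control 1 to 3. The remaining log2 fold changes ran from -0.16 for mt-Co2 to 0.11 for mt-Nd3, with mt-Nd1 at -0.03, mt-Nd2 at 0.01, mt-Nd4 at -0.05, mt-Nd4l at -0.03, mt-Nd5 at -0.0040 (0.0039 with RLE scaling), mt-Co3 at -0.05 and mt-Atp6 at -0.08, and each of these signs turned without at least 1 of the 6 libraries.

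The nuclear members moved together from library to library. Against each gene's own mean log2 CPM over the 6 libraries, the median nuclear member stood 1.01 above in shDdr2 1, and at -0.23 in shDdr2 2 and -0.60 in shDdr2 3, against 0.09 in control 1, 0.0025 in control 2 and -0.28 in control 3. The library labelled shDdr2 1 was the highest for 76 of 77 tested nuclear members, beside 32.6% of all genes. That labelled shDdr2 3 was the lowest for 70 of 77, beside 22.1%. The exception in shDdr2 1 was Sdha, at 123, 166 and 161 CPM in shDdr2 1 to 3, against 117, 147 and 171 CPM in control 1 to 3, which was highest in control 3. The median mitochondrially encoded member stood at -0.07 in shDdr2 1, -0.03 in shDdr2 2 and -0.01 in shDdr2 3, against 0.41 in control 1, -0.23 in control 2 and -0.13 in control 3.

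**Figure D4:**
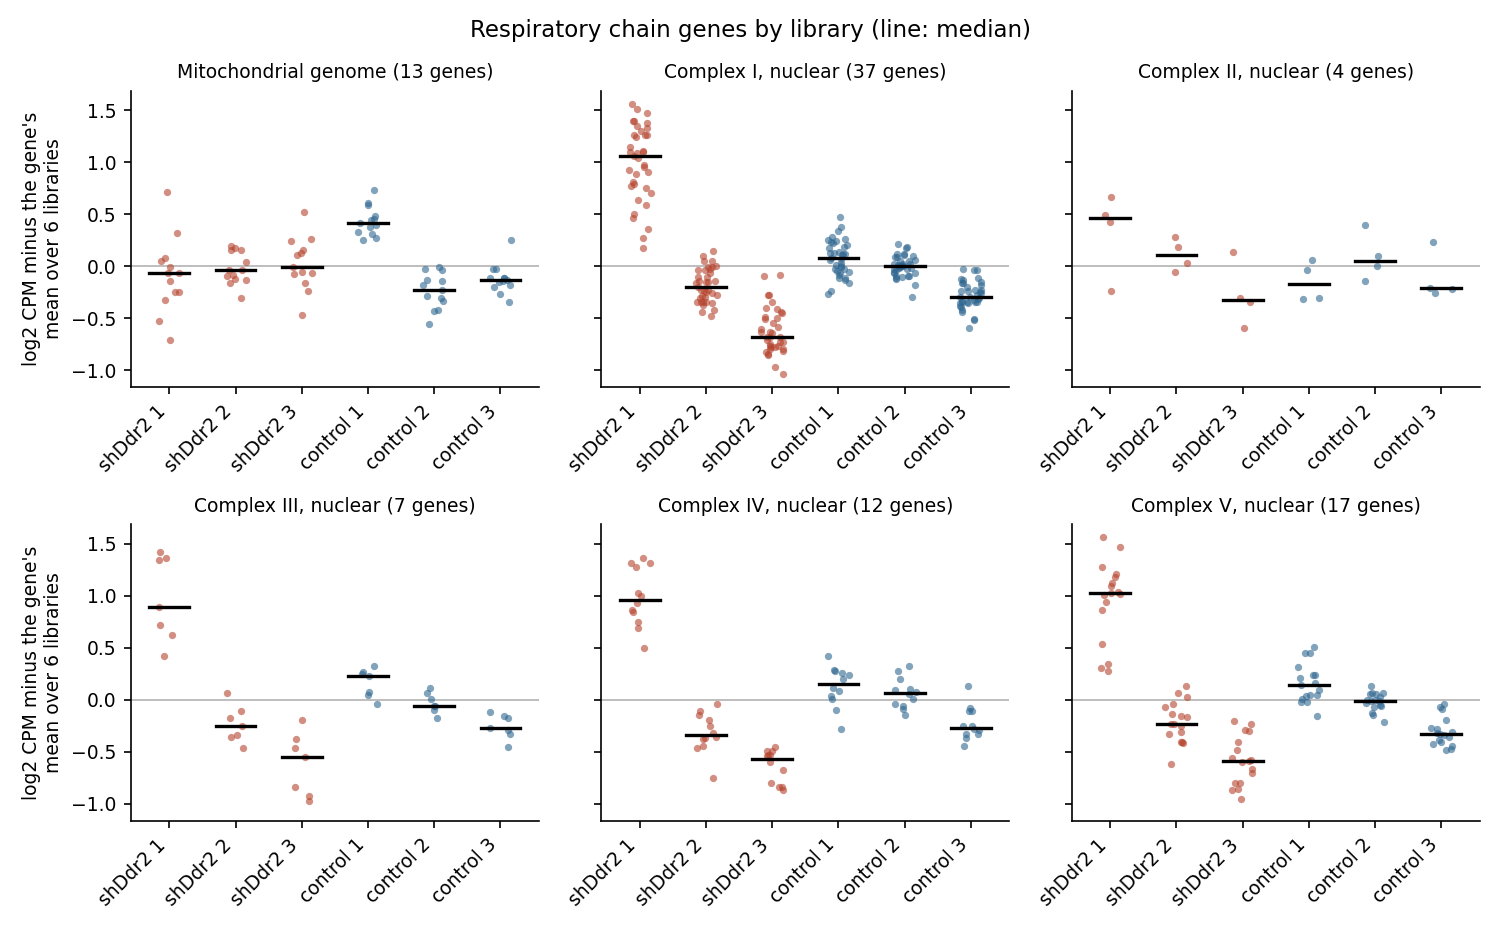
Log2 CPM of each tested subunit gene minus its mean over the 6 libraries, by library, with shDdr2 left and control right, in panels for the mitochondrial genome and the nuclear genes of complexes I to V. Points are genes and black lines medians; the nuclear medians of complexes I, III, IV and V lie at 0.89 to 1.06 in shDdr2 1, and the mitochondrial median lies at 0.41 in control 1.

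The size of the deviation in shDdr2 1 differed between groups of subunits within a complex. In complex I, the 7 core subunits made from nuclear genes had a median deviation of 0.59 in that library. Most of these bind the flavin, iron-sulfur clusters or the quinone. The 30 accessory subunits had 1.10. In complex III, the 3 larger subunits Uqcrc1, Uqcrc2 and Uqcrfs1 had 0.62 and the 4 small ones 1.35. In ATP synthase, the 5 genes of the F1 head had a median of 0.34 and the 12 genes outside it 1.06. The F1 head was itself split, with Atp5a1 at 0.27, Atp5d at 0.31 and Atp5b at 0.34, but Atp5c1 at 1.04 and Atp5e at 1.56, as high as genes outside it. Complex II, which has only core subunits, had a median of 0.46. These are descriptions of 1 library, and the medians of the same groups in shDdr2 3 ran the other way, at -0.41 for core and -0.72 for accessory subunits of complex I. Subunit group and transcript length were not separated here. Annotated lengths were 983 to 2661 bases for the core and 419 to 4371 bases for the accessory subunits of complex I. In the F1 head they were 2471 bases for Atp5a1, 1916 for Atp5b and 1410 for Atp5d, against 1166 for Atp5c1 and 421 for Atp5e.

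Single genes show the contrast. Atp5b stood at 1439, 1186 and 925 CPM in shDdr2 1 to 3, against 1168, 1089 and 1071 CPM in control 1 to 3. Atp5e, the small epsilon subunit of the same F1 head, stood at 457.5, 117 and 85.5 CPM in shDdr2 1 to 3, against 193, 140.4 and 112 CPM in control 1 to 3. The highest library was 1.56 times the lowest for Atp5b and 5.35 times for Atp5e. The same held in complex III, where the highest library was 1.53 times the lowest for the core protein Uqcrc1 and 4.80 times for Uqcrh. The most variable member was Ndufb4c, with a 6.18-fold range, from 98.6 CPM in shDdr2 1 to 16.0 CPM in shDdr2 3.

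A few named members varied little between libraries. Atp5d, the delta subunit of the F1 head, stood at 130.0, 102 and 85.5 CPM in shDdr2 1 to 3, against 108, 109.0 and 100.2 CPM in control 1 to 3. Uqcrc1 was at 263, 206 and 172 CPM in shDdr2 1 to 3, against 191, 184 and 177 CPM in control 1 to 3. In both genes the library labelled shDdr2 1 was the highest and that labelled shDdr2 3 the lowest. The supercomplex factor Cox7a2l varied more, at 678, 285 and 246 CPM in shDdr2 1 to 3, against 434, 357 and 276 CPM in control 1 to 3, with the same arrangement. Cox6a1, Cox6b1, Cox7b and Cox8a, the widely expressed forms of other complex IV subunits, were also highest in shDdr2 1 and lowest in shDdr2 3. Atp5g1, the ATP synthase gene with the smallest p among those higher, was at 55.7, 33.5 and 20.3 CPM in shDdr2 1 to 3, against 27.4, 32.0 and 24.3 CPM in control 1 to 3 (log2 fold change 0.39, SE 0.36), and the groups overlapped. Sdhb, the corresponding gene of complex II, was at 136, 87.6 and 69.1 CPM in shDdr2 1 to 3, against 83.3, 77.5 and 73.6 CPM in control 1 to 3 (log2 fold change 0.32, SE 0.27), again with overlap through shDdr2 3.

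Transcript length went with the size of these deviations. Across 75 nuclear members, Spearman's rho between annotated transcript length and the deviation in shDdr2 1 was -0.44, and with the deviation in shDdr2 3 it was 0.46. Across 13310 genes of the whole table the same rho was -0.51 and 0.46. The genes of a library share its depth and preparation, so these values describe the libraries and genes are not replicates. The 43 nuclear members under 1 kb had a median deviation of 1.09 in shDdr2 1, and the 785 genes of the table in that class had 0.77. The 32 members of 1 kb or longer had 0.71, and the 12525 genes in that class had -0.09. Ribosomal protein genes, 84 in number and mostly short, held 5.39, 2.36 and 2.05% of counts in shDdr2 1 to 3, against 3.55, 3.02 and 2.40% in control 1 to 3, with shDdr2 1 again the highest and shDdr2 3 the lowest. The part of transcript length and of library composition in the nuclear pattern was not tested.

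**Figure D5:**
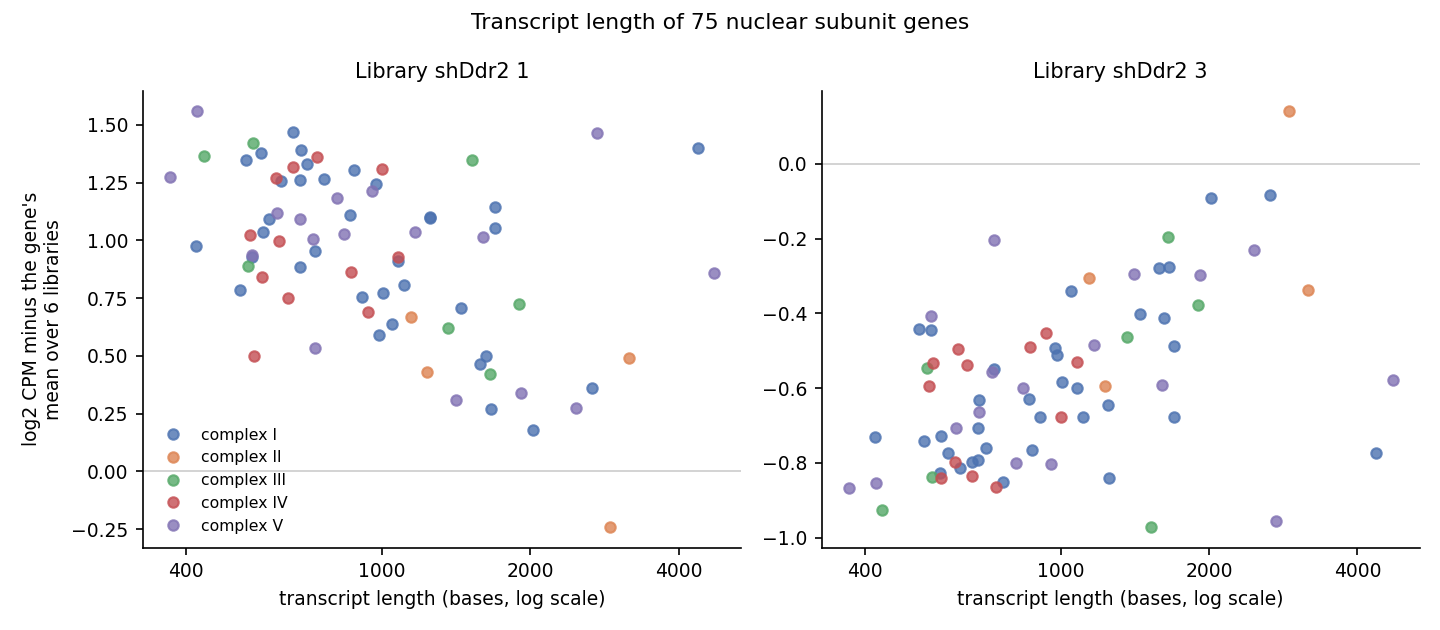
Annotated transcript length of 75 nuclear subunit genes (log axis) against log2 CPM minus the gene's mean over 6 libraries, in the libraries labelled shDdr2 1 (left) and shDdr2 3 (right), coloured by complex. Shorter genes lie higher in shDdr2 1 (Spearman's rho -0.44) and lower in shDdr2 3 (rho 0.46), and Sdha lies below 0 in shDdr2 1.

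The promoters of the nuclear members were searched for letters bound by factors known to act on respiratory genes. Sequences are those of RefSeq on GRCm38.p6, which held a promoter for 65 of the 78 nuclear members, and the 250 bases before each annotated start were read on both strands, and a match on both strands at the same bases was counted once. GCGCNTG, letters within the longer site of nuclear respiratory factor 1, occurred in 26 of 65 members (40.0%), in 25.1% of the 11508 genes of the table with a promoter and in 14.9% of 27025 genes. The ETS letters CCGGAAG, which the factor GABP can bind, occurred in 16.9% of members, 14.4% of the genes of the table and 7.83% of all genes. CCAAT occurred in 43.1% of members and 40.3% of the table, and TATAAA in 9.23% and 8.59%. The GC box GGGCGG occurred in 36.9% of members, against 61.0% of the table. A match is a description of letters and not evidence of binding.

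One promoter per complex is shown, so that members of unlike behaviour can be set side by side: Ndufs6, Uqcrh, Cox6a1 and Atp5c1 were high in shDdr2 1, and Sdha was not. Their positions on GRCm38.p6 are chr13:73328483-73328732 for Ndufs6, chr13:74350241-74350490 for Sdha, chr4:116075071-116075320 for Uqcrh, chr5:115348959-115349208 for Cox6a1 and chr2:10080433-10080682 for Atp5c1, all on the minus strand. Capitals mark GCGCNTG and CCGGAAG or their reverse complements, and each sequence ends at the base before the start. No complex III member with a promoter held GCGCNTG in this window, so Uqcrh is shown for its ETS letters.
Ndufs6: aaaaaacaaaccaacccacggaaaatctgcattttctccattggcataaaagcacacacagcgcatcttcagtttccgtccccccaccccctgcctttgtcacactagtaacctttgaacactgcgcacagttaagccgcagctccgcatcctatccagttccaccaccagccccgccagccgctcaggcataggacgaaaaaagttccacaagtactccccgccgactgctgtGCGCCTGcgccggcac
Sdha: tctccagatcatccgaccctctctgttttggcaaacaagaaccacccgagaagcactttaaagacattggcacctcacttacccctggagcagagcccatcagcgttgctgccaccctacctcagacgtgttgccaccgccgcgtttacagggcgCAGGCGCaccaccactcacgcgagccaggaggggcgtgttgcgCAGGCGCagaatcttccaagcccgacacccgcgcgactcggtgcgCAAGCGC
Uqcrh: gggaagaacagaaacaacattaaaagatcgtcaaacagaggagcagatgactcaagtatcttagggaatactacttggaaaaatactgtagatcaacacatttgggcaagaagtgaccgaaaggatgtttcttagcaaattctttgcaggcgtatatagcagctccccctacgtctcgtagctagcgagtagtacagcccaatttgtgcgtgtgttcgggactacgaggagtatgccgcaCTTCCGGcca
Cox6a1: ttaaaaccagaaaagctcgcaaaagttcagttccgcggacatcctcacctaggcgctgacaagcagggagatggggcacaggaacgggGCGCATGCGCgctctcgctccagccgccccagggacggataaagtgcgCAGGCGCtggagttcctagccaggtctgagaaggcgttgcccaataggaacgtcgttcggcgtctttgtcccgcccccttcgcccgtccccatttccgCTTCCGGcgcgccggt
Atp5c1: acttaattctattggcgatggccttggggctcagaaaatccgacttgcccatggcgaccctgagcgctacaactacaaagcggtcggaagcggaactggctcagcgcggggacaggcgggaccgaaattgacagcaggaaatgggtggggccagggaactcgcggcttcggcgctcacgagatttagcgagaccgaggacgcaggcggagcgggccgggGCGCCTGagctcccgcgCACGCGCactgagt

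The Sdha promoter held GCGCNTG or its reverse complement 3 times and its transcript did not stand highest in shDdr2 1. Over all members, the median deviation in shDdr2 1 was 0.95 for the 26 with these letters and 1.02 for the 38 tested members without them. Nrf1 itself, the gene of nuclear respiratory factor 1, stood at 40.5, 43.6 and 41.4 CPM in shDdr2 1 to 3, against 40.8, 40.2 and 43.2 CPM in control 1 to 3. Gabpa, the DNA-binding subunit of GABP, stood at 75.5, 80.4 and 74.3 CPM in shDdr2 1 to 3, against 67.0, 75.1 and 86.6 CPM in control 1 to 3. Neither showed the arrangement of the subunit genes. Transcript levels do not give the activity of a factor, and the part of these factors in the nuclear pattern was not tested. Of 12 regulators of mitochondrial genes in the list, 10 had a row and 8 had a log2 fold change above 0, beside 57.1% of all genes. Of these 10, 0 passed the test, beside 0% of all genes. The smallest p-values were those of Ppara, a nuclear receptor of fatty acid oxidation, and Gabpb1, the GABP beta subunit, with log2 fold changes of 0.38 (SE 0.49) and 0.13 (SE 0.23).

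Of the subunits and carriers that the symbol rule leaves out, some lay in the same order of libraries and some did not. Cox4i1, the widely expressed form of the largest nuclear complex IV subunit, stood at 900.4, 338 and 239 CPM in shDdr2 1 to 3, against 491, 476 and 336 CPM in control 1 to 3. Cyc1, the cytochrome c1 of complex III, was at 399, 188 and 167 CPM in shDdr2 1 to 3, against 219, 201 and 187 CPM in control 1 to 3. In both genes the highest and the lowest value were those of shDdr2 1 and shDdr2 3. Ndufab1, the acyl carrier protein of complex I, and Cycs, the electron carrier cytochrome c, were also highest in shDdr2 1, at 97.5 and 140.0 CPM. Etfdh, which feeds electrons from fatty acid oxidation to the quinone pool, was 52.0, 56.3 and 51.0 CPM in shDdr2 1 to 3, against 46.8, 47.1 and 48.0 CPM in control 1 to 3. It was the 1 gene of this list with no overlap between the groups, beside 4.32% of all genes, and its log2 fold change of 0.17 (SE 0.17) did not pass the test. Cox4i2, the hypoxia-induced form of Cox4i1, and Dmac2l, an ATP synthase coupling factor, were highest in control 2 and control 1, at 1.14 and 12.4 CPM. Of 10 genes of this list with a row, 8 were above 0, beside 57.1% of all genes, with a median of 0.32. Of these 10, 0 passed the test. Without the library labelled shDdr2 1 there was 1 above 0, beside 49.2% of all genes, with a median of -0.22.

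Genes that build or feed the chain gave 0 calls as well. Over all genes, 57.1% had a log2 fold change above 0 with all libraries and 49.2% without the library labelled shDdr2 1. Among assembly factors, 43 of 45 tested had a log2 fold change above 0 with all libraries and 12 without the library labelled shDdr2 1. The smallest p-values were those of Ecsit, a complex I assembly factor, at 0.32 (SE 0.23), and of Bcs1l, which inserts the Rieske protein into complex III, at 0.33 (SE 0.25). Of the 45, 2 showed no overlap between the groups, Ecsit and Ndufaf1, beside 4.32% of all genes. Among genes that copy and transcribe the mitochondrial genome or process its RNA, 20 of 23 were above 0, and 14 without the library labelled shDdr2 1. The smallest p-values were those of Tfb1m, a methyltransferase of mitochondrial ribosomal RNA, at 0.58 (SE 0.39), and of the RNA processing factor Fastkd5 at 0.31 (SE 0.23). Enzymes of the citric acid cycle were above 0 in 13 of 13 cases with a median of 0.12, and in 7 of 13 without the library labelled shDdr2 1. Sucla2, a subunit of succinyl-CoA synthetase, was at 0.36 (SE 0.23) and fumarase, Fh1, at 0.41 (SE 0.31). In each list 0 genes had an unadjusted p under 0.05 in edgeR's test, beside 1.44% of all genes.

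Cell type markers differed between these libraries too, and bulk counts do not tell whether epithelial ones come from tumour or host cells. The summed level of 10 fibroblast markers was 1657, 4308 and 11296 CPM in shDdr2 1 to 3, against 2767, 5073 and 5975 CPM in control 1 to 3, lowest where the nuclear members were highest and highest where they were lowest. Endothelial markers, 8 of 8 with a row, were likewise lowest in shDdr2 1 at 80.7 CPM and highest in shDdr2 3 at 383 CPM, and ranged from 126 to 260.1 CPM in control libraries. Keratinocyte markers, 10 of 10 with a row, summed to 10215 to 14289 CPM in shDdr2 libraries, highest in shDdr2 1, and to 10394 to 12195 CPM in control libraries. Urothelial and epithelial markers, 12 of 14 with a row, summed to 924, 1509.5 and 1659 CPM in shDdr2 1 to 3, against 2943, 1703 and 1495 CPM in control 1 to 3, lowest in the library labelled shDdr2 1. Of these 12, 11 had a log2 fold change below 0 and 1 above 0, with a median of -0.69, beside 57.1% of all genes above 0. Without the library labelled shDdr2 1, 4 were above 0, beside 49.2% of all genes, with a median of -0.50. Without both libraries numbered 1 there were 6 above 0, beside 49.7%, with a median of -0.083. With all libraries 6 of the 12 showed no overlap between the groups, beside 4.32% of all genes, while 0 passed the test. No marker with a row was under 1 CPM in all 6 libraries, and a gene at 0 in any library has no row. The part of these cell types in the subunit levels was not tested.

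Markers of skeletal muscle, a tissue rich in mitochondria, had the median log2 fold change farthest from 0 of the cell type lists, at 4.58. Of 16 muscle markers 14 had a row, all 14 were above 0, and 12 showed no overlap between the groups, beside 4.32% of all genes, while 0 had an adjusted p under 0.05. Their summed level was 1190, 3849 and 502 CPM in shDdr2 1 to 3, against 13.0, 88.8 and 136 CPM in control 1 to 3. The highest sum was that of shDdr2 2, and the part of muscle in the subunit levels was not tested. Adipocyte markers, 3 of 8 with a row, summed to 43.1 to 52.6 CPM in shDdr2 and 20.4 to 37.2 CPM in control libraries. The sums did not overlap, although the groups overlapped in each of the 3 genes. Macrophage markers, 9 of 9 with a row, summed to 256 to 613 CPM in shDdr2 and 257 to 653 CPM in control libraries, and T cell markers, 7 of 8 with a row, summed to 15.2 to 36.8 CPM in shDdr2 and 8.68 to 44.2 CPM in control libraries. Neutrophil markers, 7 of 7 with a row, summed to 55.5 to 103 CPM in shDdr2 and 112 to 143 CPM in control libraries. These sums did not overlap either, and 3 of the 7 genes showed no overlap.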

How the data were processed

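Per the labels' protocols, RNA of 6 whole tumours was selected with poly-T beads and read from both ends, 150 bp each. Bowtie2 2.1.0, RSEM 1.2.31, limma and GRCm38.p5 are named in the submitters' processing notes, with no roles. The sources used here do not give the annotation, the strand setting or any gene filter. The authors deposited a table of 15295 Entrez genes with whole-number counts, possibly rounded from estimates, of which the lowest is 1. Values of 100000 or more, 17 in all, carry 3 significant digits. In the deposited log2 values each library's counts are divided by its own factor and 1 is added before the log. They served only as an alternative.

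RefSeq symbols matched 14876 Entrez numbers and 419 had none. Coordinates and the lengths of principal transcripts are those of GENCODE M21, for 89 members, of which 34 share exon bases with another gene and 14 have an annotated copy at 97% identity or more over most of their length. Counts of both kinds are uncertain. Counts were filtered with filterByExpr (14498 genes left), scaled by TMM and tested with edgeR 4.0.16 (quasi-likelihood F test, robust, R 4.3.3), two-sided, with Benjamini-Hochberg adjustment over all genes and a threshold of 0.05. CPM uses TMM-scaled totals. The common biological coefficient of variation was 35.3%, and log2 fold changes had a median 95% half-interval of 0.76. Deviations are of log2(CPM + 0.5). Shares and complex means were compared by exact permutation over 20 assignments of libraries. Correlations used scipy 1.17.1. A longer form of the nuclear respiratory factor 1 letters was searched before the 7-letter form and is not reported here. The edgeR test was tried on simulated counts.

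Members and lists were chosen with earlier results of these data known. The genes named are Ddr2, the mitochondrially encoded members, in each complex those highest per length, most variable and with the smallest p in each direction, tissue forms with their counterparts, 4 subunits left out by symbol, up to 2 genes per pathway list and genes of counts of 5 or fewer. Sdha, Sdhc, Atp5a1, Atp5c1, Atp5g2, Atp5g3, Ndufb4, Ndufs6, Nrf1, Gabpa, Cox4i2, Dmac2l and the genes listed at an unadjusted p under 0.05 without 1 library were named after their values were seen.

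Replicate numbers come from the titles. Across all genes, same-numbered libraries deviated together from their group means, with r of 0.30, 0.27 and 0.25, above the criterion of 0.1 for pairs. Control 3 with the library labelled shDdr2 2 also gave 0.25. Across the members alone, r was -0.054, -0.066 and 0.45 for numbers 1, 2 and 3. The highest values there were from unlike numbers, 0.59 for shDdr2 2 with control 3 and 0.49 for shDdr2 1 with control 2. Alternatives were other scalings, filters and tests (DESeq2 1.42.0, limma 3.58.1), the pairing, and leaving out libraries.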

Additional observations from a re-analysis of the deposited data

How the results depend on the processing

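No member passed an adjusted p of 0.05 under any alternative run, which were RLE, upper quartile and total-count scaling, no filter or a stricter filter on counts, the mitochondrial genome left out, DESeq2, limma-voom, limma on the deposited log2 values, the replicate block and each library left out in turn. The number of members with a log2 fold change above 0, 77 of 90, ranged from 65 to 79 under the alternatives that kept all 6 libraries and every member, and was 67 with the replicate block, beside 51.3% of all genes. Without each library in turn it ranged from 12 to 85, and the number at an unadjusted p under 0.05 from 0 to 11. The 12 and the 11 both came without the library labelled shDdr2 1. Without both libraries numbered 1, an alternative chosen after seeing the data, 17 members were above 0 and 9 had an unadjusted p under 0.05. The replicate block changed no call, and pairing left the differences of shares and complex means as they were, with exact p from 0.75 to 1.0 where 0.25 is the smallest possible.

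Differences of the shDdr2 minus control means turned without both libraries numbered 1, to 0.40 for the mitochondrial share (percentage points), -0.12 for the nuclear share (percentage points), 0.37 for the log2 ratio of the 2 genomes, -0.26 for complex I, -0.071 for complex II, -0.28 for complex III, -0.40 for complex IV, -0.23 for complex V. With total-count scaling the complex IV difference was -0.017. Leaving out each library in turn gave -0.45 to 0.17 for the mitochondrial share (percentage points), -0.16 to 0.31 for the nuclear share (percentage points), -0.49 to 0.26 for the log2 ratio of the 2 genomes, -0.33 to 0.47 for complex I, -0.025 to 0.28 for complex II, -0.38 to 0.41 for complex III, -0.47 to 0.34 for complex IV, -0.34 to 0.43 for complex V, and -0.28 to 0.71 for Ddr2. The cause was not tested.

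No named member was called, so a change of sign is one of an untested direction. Log2 fold changes of named members whose sign turned without 1 library ranged over mt-Nd1 -0.17 to 0.16, mt-Nd2 -0.13 to 0.29, mt-Co1 -0.21 to 0.093, mt-Co2 -0.26 to 0.017, mt-Atp6 -0.17 to 0.058, mt-Co3 -0.22 to 0.33, mt-Nd3 -0.30 to 0.55, mt-Nd4l -0.33 to 0.42, mt-Nd4 -0.19 to 0.18, mt-Nd5 -0.19 to 0.30, mt-Nd6 -0.22 to 0.011, mt-Cytb -0.17 to 0.22, Ndufb9 -0.52 to 0.75, Ndufb4c -0.56 to 0.98, Sdhd -0.14 to 0.73, Uqcrh -0.63 to 0.77, Ndufa4 -0.55 to 0.69, Cox6c -0.55 to 0.78, Cox7a2 -0.33 to 0.89, Ndufa4l2 -0.77 to 0.053, Atp5b -0.071 to 0.24, Atp5e -0.55 to 0.95, Atp5g1 -0.050 to 0.68, Atp5d -0.18 to 0.13, Cox6a1 -0.52 to 0.36, Cox8a -0.30 to 0.22, Cox6b1 -0.41 to 0.50, Cox7b -0.56 to 0.69, Cox7a2l -0.42 to 0.43. Without both libraries numbered 1 the turned values were mt-Nd1 0.20, mt-Co1 0.017, mt-Atp6 0.050, mt-Co3 0.13, mt-Nd4l 0.68, mt-Nd4 0.37, mt-Nd5 0.40, mt-Cytb 0.34, Ndufb9 -0.30, Ndufb4c -0.47, Sdhd -0.41, Uqcrh -0.44, Ndufa4 -0.39, Cox6c -0.54, Cox7a2 -0.42, Atp5b -0.044, Atp5e -0.33, Atp5g1 -0.076, Cox6a1 -0.60, Cox8a -0.28, Cox6b1 -0.26, Cox7b -0.29, Cox7a2l -0.26. Under other settings they were, with the replicate block, mt-Nd4l 0.0092, mt-Nd5 0.036, Cox6a1 -0.11, Cox8a -0.053, with limma-voom mt-Co3 0.0080, mt-Nd5 0.031, Cox6a1 -0.091, Cox8a -0.047, with limma on the deposited values mt-Nd5 0.027, Cox6a1 -0.11, Cox8a -0.057, with RLE scaling mt-Nd5 0.0039, Atp5d 0.013, with DESeq2 mt-Nd5 0.0039, Atp5d 0.013, with upper quartile scaling mt-Nd5 0.0017, Cox8a -0.0087, and with total counts Cox6a1 -0.045, Cox8a -0.061. Depth limits Sdhd and Cox6b2, with at most 15 counts in a library. The other limits are the 3 libraries per group and the distance of the library labelled shDdr2 1 from the rest.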

Other observations

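Pseudogenes and ribosomal RNAs outside the member list were also counted. Ndufs5-ps, a processed copy of the complex I gene Ndufs5, had 508, 276 and 178 counts in the libraries labelled shDdr2 1 to 3, against 289, 324 and 230 counts in control 1 to 3, while Ndufs5 itself had 325, 206 and 130 counts in shDdr2 1 to 3, against 278, 195 and 195 counts in control 1 to 3. The pseudogene thus had more counts than its parent in all 6 libraries, and how reads shared by both were assigned is not given in the sources used here. Ndufs6b had 33, 11 and 6 counts in shDdr2 1 to 3, against 24, 10 and 13 counts in control 1 to 3, and Atp5c1-ps had 2 to 10 counts per library. The mitochondrial ribosomal RNAs mt-Rnr1 and mt-Rnr2, which poly-T selection largely removes, held 0.333, 0.169 and 0.155% of all counts in shDdr2 1 to 3, against 0.329, 0.230 and 0.208% in control 1 to 3. Both libraries numbered 1 were high in them, whereas the summed mitochondrially encoded subunit genes were highest in control 1 and lowest in the library labelled shDdr2 1.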
